A study of Mus musculus with 2 samples.

Results

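The genes described here are the carriers and surface enzymes by which the small intestine digests and takes up dietary sugar: Slc5a1 (SGLT1, the sodium-glucose cotransporter of the brush border), Slc2a2 (GLUT2, the facilitative glucose carrier of the basolateral membrane), Slc2a5 (GLUT5, the fructose carrier), Slc5a4a and Slc5a4b (mouse relatives of the glucose sensor SGLT3), Lct (lactase), Sis (sucrase-isomaltase), Mgam (maltase-glucoamylase) and Treh (trehalase). They were chosen by name, and all 9 were found among the 55357 gene rows of the count tables. The tables hold single-cell RNA-seq of crypt-enriched small intestinal epithelium, with 1 library from Adipfl/fl mice and 1 from Adipfl/flpVilli-CreT mice. Both groups carry the floxed adiponectin allele, and in the second a Cre recombinase driven by villin regulatory sequence deletes it in the gut epithelium, also in cells that do not make adiponectin. The study describes each library as a pool of male mice 8 weeks old, and the labels do not name the intestinal segment, though legends in the study's supplement speak of ileum. The question put to these libraries is whether loss of epithelial adiponectin alters the gut epithelium, here read on its sugar-handling genes. With 1 library per genotype no difference between genotypes can be tested, and the 95% intervals given below cover counting error only.

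In the small intestine, starch and disaccharides are cut to monosaccharides by enzymes anchored in the brush border of enterocytes. Sucrase-isomaltase and maltase-glucoamylase finish the digestion of starch products, lactase splits milk sugar and trehalase splits the trehalose of fungi and insects. Glucose and galactose then enter with sodium through SGLT1, fructose enters through GLUT5, and both leave towards the blood largely through GLUT2. Enterocytes are born in the crypt, move up the villus over a few days and are shed at its tip, so that a cell's place on the villus is also its age.

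Positions are on the mouse genome build GRCm38. Slc5a1 is on chr5:33104219-33162870, Slc2a2 on chr3:28697903-28731359, Slc2a5 on chr4:150119283-150144169, Mgam on chr6:40628831-40769123 and Treh on chr9:44673233-44686305, each on the forward strand, while Lct on chr1:128284756-128328318 and Sis on chr3:72888557-72967863 are on the reverse strand. Slc5a4a on chr10:76147451-76189265 and Slc5a4b on chr10:76057494-76110961 are neighbours on opposite strands, with 36489 bases between them. Slc2a2 and Slc5a4b each overlap an annotated antisense RNA, Treh overlaps Phldb1 on the opposite strand, and 2 pseudogenes lie within Slc5a1. Counting in a 3′ library rests on the end of the transcript: in the last 500 windows of 60 bases of each reference transcript, 0 windows of the 9 genes were shared with another gene. Slc5a4a and Slc5a4b shared none with each other over their whole length, though 14 earlier windows of Slc5a4b were shared with further genes.

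The promoters below are shown because these genes differ in the enterocyte cluster where they were highest: cluster 7 of the order below for Sis and Slc2a2, the next cluster, 6, for Lct, and a later cluster for Treh. Each is shown from 250 bases before to 50 bases after the RefSeq start (GRCm38.p6), 5′ to 3′ on the strand of the gene. Capitals mark matches, on either strand, to the elements AGATAA (bound by GATA factors), GTTAAT (HNF1), TTTATG (CDX) and CAAAGT (HNF4), none of which overlap here.
Sis, chr3:72967814-72968113, reverse strand: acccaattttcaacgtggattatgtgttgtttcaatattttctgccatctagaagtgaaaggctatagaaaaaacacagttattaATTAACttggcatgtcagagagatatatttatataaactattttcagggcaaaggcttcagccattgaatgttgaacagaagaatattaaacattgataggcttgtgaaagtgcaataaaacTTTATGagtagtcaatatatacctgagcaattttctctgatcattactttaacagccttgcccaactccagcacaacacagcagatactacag
Slc2a2, chr3:28697653-28697952, forward strand: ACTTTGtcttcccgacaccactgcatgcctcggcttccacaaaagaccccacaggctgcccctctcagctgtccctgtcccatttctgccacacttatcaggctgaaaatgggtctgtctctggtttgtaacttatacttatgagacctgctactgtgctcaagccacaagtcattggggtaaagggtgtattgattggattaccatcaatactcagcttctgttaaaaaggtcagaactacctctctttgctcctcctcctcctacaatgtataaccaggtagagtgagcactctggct
Lct, chr1:128328269-128328568, reverse strand: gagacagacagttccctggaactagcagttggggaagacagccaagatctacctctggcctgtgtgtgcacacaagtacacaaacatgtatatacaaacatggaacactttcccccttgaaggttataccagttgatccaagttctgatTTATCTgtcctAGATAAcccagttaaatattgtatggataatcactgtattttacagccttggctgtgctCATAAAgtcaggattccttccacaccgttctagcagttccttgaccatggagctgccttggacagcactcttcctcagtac
Treh, chr9:44672983-44673282, forward strand: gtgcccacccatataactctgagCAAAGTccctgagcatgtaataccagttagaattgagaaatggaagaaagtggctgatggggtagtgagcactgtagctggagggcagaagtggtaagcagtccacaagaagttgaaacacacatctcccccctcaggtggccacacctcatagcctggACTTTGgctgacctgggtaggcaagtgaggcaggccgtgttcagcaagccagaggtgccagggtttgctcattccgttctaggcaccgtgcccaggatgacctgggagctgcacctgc
The Sis window held HNF1 letters 165 bases and CDX letters 43 bases before the start, and the Lct window held GATA letters 101 and 90 bases and CDX letters 31 bases before it. Treh held the HNF4 letters 227 and 68 bases before its start and Slc2a2 at the first base of the window. Such letters are common: among 32851 promoters of the same length, 11.178% held the GATA element, 7.099% the HNF1 element, 11.85% the CDX element and 14.353% the HNF4 element, against 2, 2, 3 and 2 of the 9 promoters here. These are matches of letters and no binding was measured. GC content was 34.0% for Sis, 44.67% for Lct, 48.0% for Slc2a2 and 54.67% for Treh, with a median of 52.67% over all promoters.

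The Adipfl/fl library held 9791 barcodes and 42150623 UMIs (counted molecules), and the Adipfl/flpVilli-CreT library held 11838 barcodes and 63370798 UMIs. A minimum of 500 genes had to be exceeded and the mitochondrial share had to stay under 25%, which left 3069 and 5555 cells with median depths of 4838 and 4749 UMIs. The libraries shared 31 barcodes, 3 of them among the cells kept. Adipoq itself had 1 UMI over all barcodes of the Adipfl/fl library and 0 in the other, so the deletion could not be checked at this depth. Cells were clustered with the 9 genes and the related sugar genes left out, and clusters were named from fixed markers. In order of a score of tip minus bottom landmark genes, the enterocytes formed villus bottom-like cluster 4, then mid-villus-like clusters 7 and 6. Clusters 3 and 1 came next, and villus tip-like clusters 2 and 0 came last. Clusters 3 and 1 matched the mid-villus markers best but stayed unnamed. The tip marker Tmigd1 was among their 10 leading genes, and no mid-villus marker was. Median depth fell along this order, from 21583 and 20458 UMIs per cell in cluster 4 to 3720 and 3531 in cluster 0, while the median mitochondrial share went from 6.70% and 5.86% to 19.8% and 20.0%. The clusters were formed from these same cells, so levels along the order are a description with no test, and Slc2a2, Slc5a4a and Slc5a4b were among the 10 leading genes of mid-villus-like clusters although clustering did not use them. Cluster 9, of 101 and 214 cells, had under 3 markers of any class and stayed unnamed. Its median score, -1.34 and -1.16, lay within the range of the order, but it is in neither the order nor the folds below. Levels are given as CPM, the UMIs of a gene in 1000000 UMIs of the class, first for Adipfl/fl and then for Adipfl/flpVilli-CreT.

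**Figure D1:**
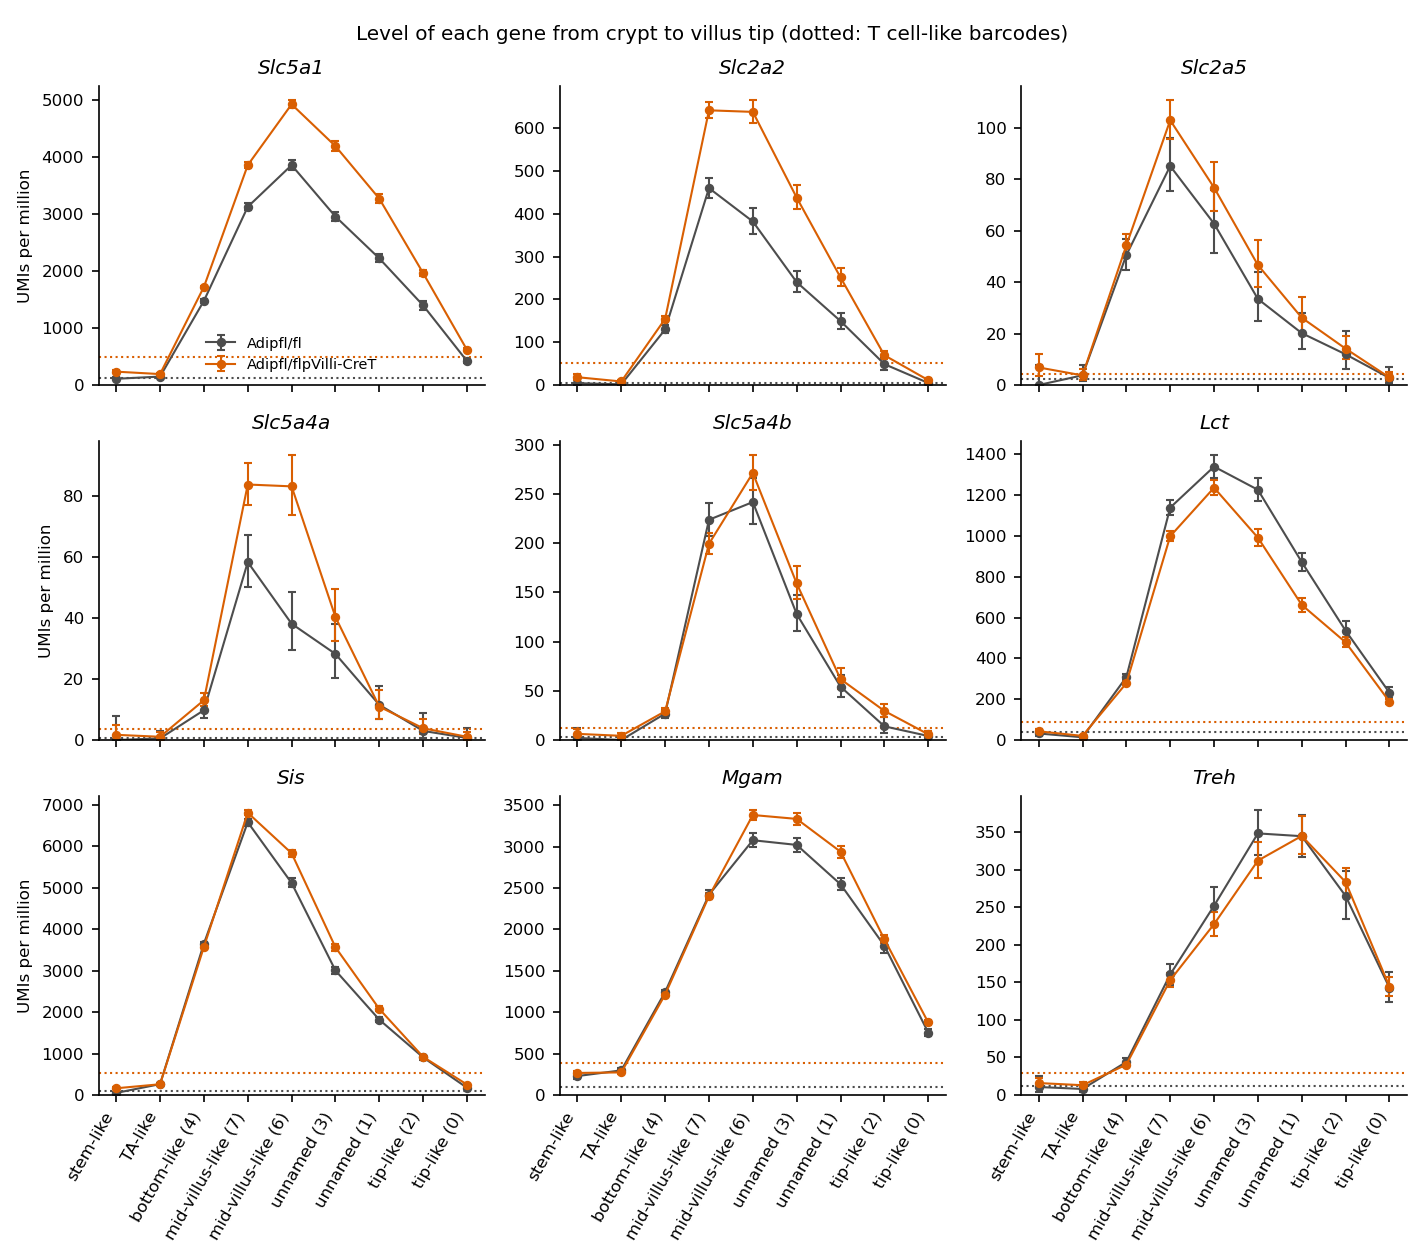
Level of each gene (CPM, linear axes from 0) in stem-like and TA-like crypt cells and in the 7 enterocyte clusters from villus bottom to tip, with 95% counting intervals, in Adipfl/fl (grey) and Adipfl/flpVilli-CreT (orange). Dotted lines are the levels in T cell-like barcodes, and the curves of Sis and Slc2a5 turn down after cluster 7 while that of Treh is highest in clusters 3 and 1.

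SGLT1 was the carrier with the most UMIs and was highest in the middle of the villus. In villus bottom-like cells Slc5a1 stood at 1476 and 1720 CPM. It reached 3124 and 3855 CPM in cluster 7 and 3856 and 4923 CPM in cluster 6. From there it went to 419 and 616 CPM in cluster 0. The highest level was thus 2.61 and 2.86 times that at the villus bottom, and the intervals of the highest cluster and the next did not overlap in either library.

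GLUT2, on the opposite membrane of the same cell, had a similar place on the villus. Slc2a2 was at 130 and 155 CPM in cluster 4, at 460 and 642 CPM in cluster 7 and at 382 and 638 CPM in cluster 6. In cluster 0 it was at 4.80 CPM (7 UMIs) and 11.4 CPM (43 UMIs). T cell-like barcodes, the background described below, held 95.6% and 508% of the Slc2a2 UMIs of a cluster 0 cell, so no ratio to that cluster is given. In the Adipfl/flpVilli-CreT library clusters 7 and 6 did not differ beyond their intervals.

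The fructose carrier GLUT5 was rare, at no more than 85.2 and 103 CPM, and was highest in cluster 7, the first after the villus bottom. Slc2a5 was at 50.6 and 54.4 CPM in cluster 4, at 85.2 and 103 CPM in cluster 7 and at 62.8 and 76.8 CPM in cluster 6, so that its highest level was 1.69 and 1.90 times that of the villus bottom. It came down to 2.74 and 2.93 CPM, from 4 and 11 UMIs, in cluster 0. In Adipfl/fl the intervals of clusters 7 and 6, 75.4 to 96.0 and 51.5 to 75.9 CPM, overlapped only at their ends.

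The neighbouring genes of the SGLT3 pair were both highest in the mid-villus-like clusters. Slc5a4a went from 9.79 and 13.1 CPM in cluster 4 to 58.4 and 83.8 CPM in cluster 7 and 38.2 and 83.2 CPM in cluster 6. Slc5a4b went from 26.8 and 29.2 CPM in cluster 4 to 224 and 199 CPM in cluster 7 and 242 and 271 CPM in cluster 6. Both were scarce at the tip: cluster 0 held 1 and 4 UMIs of Slc5a4a and 6 and 22 UMIs of Slc5a4b. Slc5a4b had the steepest entry onto the villus of the 9 genes, its highest level being 9.02 and 9.30 times that of cluster 4. The intervals of clusters 7 and 6 overlapped for Slc5a4a in Adipfl/flpVilli-CreT and for Slc5a4b in Adipfl/fl.

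Among the hydrolases, sucrase-isomaltase had the earliest peak in this order, in cluster 7. Sis stood at 3652 and 3572 CPM in cluster 4, at 6578 and 6807 CPM in cluster 7 and at 5113 and 5830 CPM in cluster 6. By cluster 2 it was at 908 and 919 CPM, and in cluster 0 it was at 175 and 253 CPM. Its highest level was 1.80 and 1.91 times that of the villus bottom.

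Maltase-glucoamylase, which shares substrates with sucrase-isomaltase, had a broader distribution. Mgam was at 1245 and 1214 CPM in cluster 4, at 3077 and 3382 CPM in cluster 6 and at 3021 and 3335 CPM in cluster 3, with overlapping intervals for these last clusters. It still had 755 and 876 CPM in cluster 0, so that its highest level was 4.07 and 3.86 times that of the last tip cluster, where T cell-like barcodes held 15.2% and 49.7% of its UMIs per cell. In UMIs, which in a 3′ library do not grow with transcript length, Sis exceeded Mgam in clusters 4, 7 and 6 of both libraries, and Mgam exceeded Sis in clusters 1, 2 and 0 of both.

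Lactase and trehalase were highest in later clusters than sucrase-isomaltase. Lct was at 308 and 278 CPM in cluster 4, at 1339 and 1236 CPM in cluster 6 and at 232 and 188 CPM in cluster 0. Treh was at 44.0 and 40.4 CPM in cluster 4 and did not reach its highest level before the unnamed clusters, with 348 and 312 CPM in cluster 3 and 344 and 345 CPM in cluster 1. It had 143 and 144 CPM in cluster 0. Treh had the latest peak of the 9 genes, with the intervals of clusters 3 and 1 overlapping in both libraries.

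**Figure D2:**
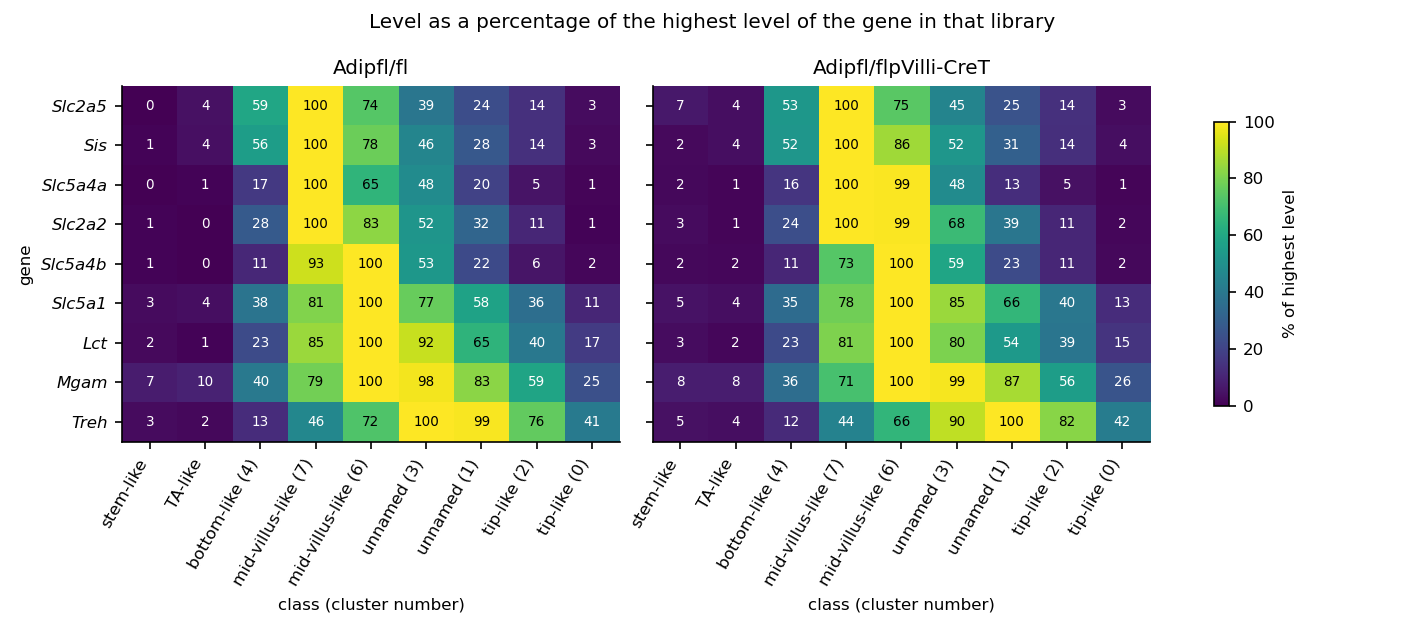
Each gene's level as a percentage of its highest level over the 9 crypt and enterocyte classes, drawn as a colour scale from 0 to 100 for each library, with classes in columns from crypt to tip and genes in rows. The bright cells shift from cluster 7 for Slc2a5 and Sis to clusters 3 and 1 for Treh, in both libraries.

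The cells of the ordered clusters were also cut into quintiles of the landmark score. The same score had ordered the clusters, and its landmarks were among the markers that named the bottom and tip clusters. Of the 1176 cells of quintile 1, 641 came from cluster 4 and 405 from cluster 7. Of the 1176 of quintile 3, 793 came from cluster 1 and 234 from cluster 3. The quintiles are thus no separate support for the order, whose ends recurred and whose middle was not resolved. The Slc2a5 level was highest in quintile 1 in both libraries, at 63.4 and 73.0 CPM, and the Treh level in quintile 3, at 357 and 341 CPM. Sis was highest in quintile 1 in Adipfl/fl, at 4769 CPM against 4341 CPM in quintile 2, and in quintile 2 in Adipfl/flpVilli-CreT, at 4992 CPM against 4917 CPM in quintile 1. The other 6 genes were highest in quintile 2 in both libraries. Quintile 1 differed from the rest in depth, with medians of 19228 and 18830 UMIs per cell against 3453 to 6096 in the others; the part of depth in the order was not tested.

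Since the genes peak at different heights, the sugar-handling mRNA of a cell changed its make-up along the villus. In cluster 4, Sis gave 52.6% and 50.5% of the UMIs of the 9 genes, Slc5a1 21.3% and 24.3% and Mgam 17.9% and 17.2%. In cluster 0, Mgam gave 43.5% and 41.8%, Slc5a1 24.1% and 29.3% and Sis 10.1% and 12.1%. Treh, at 0.634% and 0.571% in cluster 4, made up 8.22% and 6.87% of the smaller total in cluster 0. Lct went from 4.44% and 3.93% to 13.4% and 8.96%. The cluster 0 shares can include background. T cell-like barcodes held 35.7% and 90.2% of the Slc5a1 UMIs of a cluster 0 cell, 70.1% and 239% of Sis, 15.2% and 49.7% of Mgam, 20.4% and 52.5% of Lct and 9.65% and 23.4% of Treh.

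**Figure D3:**
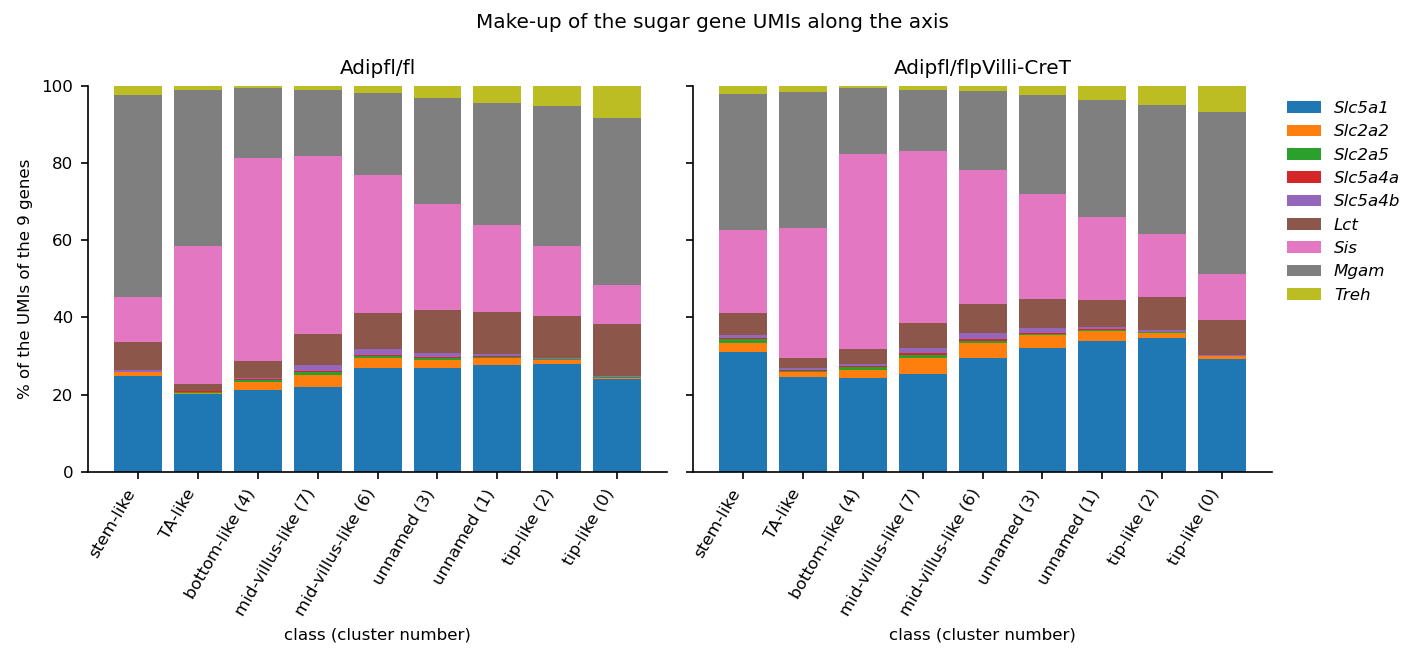
Stacked bars of the share of each gene (percent, from 0 to 100) in the summed UMIs of the 9 genes, for crypt classes and enterocyte clusters of each library. The Sis share goes from 52.6% and 50.5% in cluster 4 to 10.1% and 12.1% in cluster 0 as the Mgam share goes from 17.9% and 17.2% to 43.5% and 41.8%, with background not subtracted (70.1% and 239% of the cluster 0 number for Sis).

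Single mid-villus-like cells held UMIs of several of the genes. Whether the genes were found together more often than their separate shares give was not tested. When each cell was thinned to 2000 UMIs, the median mid-villus-like cell held UMIs of 5 of the 9 genes in both libraries, and 77.7% and 82.7% of cells held 5 or more. In villus tip-like cells the median was 3 genes, and 6.62% and 4.09% of cells held none. Sis was found in 99.1% and 99.7% of thinned mid-villus-like cells, Slc5a1 in 98.8% and 99.7%, Mgam in 96.6% and 98.4% and Lct in 88.4% and 83.6%. The rarer genes were found in fewer cells: Slc2a2 in 57.5% and 68.3%, Slc5a4b in 35.2% and 32.9%, Treh in 29.7% and 31.7%, Slc2a5 in 12.5% and 15.0% and Slc5a4a in 9.48% and 14.6%. At full depth, medians of 12908 and 12824 UMIs per cell, Slc2a2 was found in 92.7% and 97.2% of these cells and Slc5a4a in 42.2% and 59.6%.

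T cell-like barcodes, which should lack these mRNAs, are used as a measure of background. After the same thinning, 13.1% and 19.6% of them held an Slc5a1 UMI, 12.0% and 21.2% Sis, 12.2% and 20.7% Mgam, 6.12% and 6.38% Lct and 0.875% and 3.83% Slc2a2, from medians of 4582 and 4010 UMIs before thinning. The thinning left out 22 and 48 of these barcodes, 0 and 2 mid-villus-like cells and 19 and 98 villus tip-like cells. Villus tip-like cells lay above this for Slc5a1, at 63.0% and 75.0%, Mgam, at 75.0% and 82.9%, Lct, at 46.3% and 42.6%, Sis, at 40.6% and 50.3%, and Treh, at 30.4% and 31.0% against 2.33% and 4.59%. For Slc2a2 the tip share was 4.11% (95% interval, 2.63 to 6.11) and 5.86% (4.77 to 7.11), and in Adipfl/flpVilli-CreT the interval of the T cell-like share, 2.16 to 6.23, overlaps it.

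In crypt cells, stem-like and TA-like together, the genes were at low levels. A further cycling cluster, of 4 and 67 cells, is left out of the crypt values. It stayed unnamed because over 90% of its cells came from 1 library, Adipfl/flpVilli-CreT. Slc5a1 was at 140 and 205 CPM, Sis at 221 and 229 CPM and Mgam at 284 and 271 CPM, while the other 6 genes were each at or below 17.2 and 27.4 CPM. In Adipfl/fl the mid-villus-like level was 27.5 times the crypt level for Sis and 9.31 times for Mgam. The thinned share of crypt cells with a UMI was 30.1% and 22.4% for Slc5a1, 27.7% and 27.1% for Sis and 54.2% and 42.1% for Mgam. For Slc5a1 in Adipfl/flpVilli-CreT the crypt interval, 17.0 to 28.6%, overlaps that of T cell-like barcodes, 15.8 to 23.9%. Its crypt level was 0.419 times theirs in CPM, but crypt cells held 5.25 of its UMIs each against 2.17. The measures go opposite ways and no order is read there. In Adipfl/fl the crypt level of Slc5a1 was 1.08 times (95% interval, 0.906 to 1.28) the T cell-like level. For Sis the crypt level was 2.07 times the T cell-like level in Adipfl/fl and 0.431 times it in Adipfl/flpVilli-CreT. In the latter, crypt cells held 5.87 Sis UMIs each against 2.36, so no order is read there either. Mgam had the highest crypt share of the 9 genes, and its crypt level was 2.85 times the T cell-like level in Adipfl/fl but 0.707 times it in Adipfl/flpVilli-CreT, where share and level go opposite ways and no order is read.

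The genotypes were compared within classes as the ratio of the Adipfl/flpVilli-CreT to the Adipfl/fl level. A gene was called when this fold was at least 1.5 in either direction, with at least 50 CPM in the higher library and at least 20 UMIs. In mid-villus-like cells, 327 and 689 cells, all 9 genes could be called and 1 was, higher, while 1.02% of the 3053 genes compared were called higher and 0.426% lower. That gene was Slc5a4a, at 51.4 and 83.6 CPM, a fold of 1.63 (95% interval, 1.41 to 1.88), which was 1.47 and no longer called when cells were thinned to 2000 UMIs. Slc2a2 was next, at 433 and 641 CPM, a fold of 1.48 (1.41 to 1.55) that lies just under the limit. Slc5a1 had a fold of 1.25 (1.22 to 1.27) and Slc2a5 of 1.22 (1.08 to 1.38). The hydrolases were nearer to 1: Sis had a fold of 1.07, Mgam of 1.03 and Treh of 0.923, and Lct was lower in Adipfl/flpVilli-CreT, at 1208 and 1076 CPM, with a fold of 0.891 (0.863 to 0.920). Slc5a4b, beside Slc5a4a on the chromosome, had a fold of 0.970 (0.903 to 1.04). The median log2 fold of the 9 genes was 0.10, against 0.01 for all genes compared. For single genes the 10th to 90th percentiles of the log2 fold ran from -0.22 to 0.22, and Slc5a4a, Slc2a2, Slc5a1 and Slc2a5 lay above that range.

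Slc5a1, Slc2a2 and Slc2a5 were higher and Lct lower in Adipfl/flpVilli-CreT in all 7 enterocyte clusters. The Slc5a1 fold ran from 1.17 to 1.47, with every interval above 1 and 0 clusters called. The Slc2a2 fold ran from 1.19 in cluster 4 to 2.38 in cluster 0, the latter from 7 and 43 UMIs, and was called in clusters 6, 3 and 1, where 1.84%, 3.52% and 3.74% of genes were called higher and 0.987%, 1.63% and 2.52% lower. In cluster 7 these shares were 1.04% and 0.653%, in cluster 2 they were 2.92% and 2.32% and in cluster 0 they were 2.75% and 2.09%, cluster 4 being the villus bottom given below. The Lct fold ran from 0.759 in cluster 1 to 0.923 in cluster 6, with every interval below 1 and 0 called. For Slc2a5 only 1 of the 7 intervals lay above 1. Slc5a4a was called in 1 cluster, cluster 6, at 38.2 and 83.2 CPM, a fold of 2.18 (1.66 to 2.90). It reached 50 CPM there only in Adipfl/flpVilli-CreT, so it could be compared only through the library where it was higher. The clusters come from the same pair of libraries and are no replicates of a genotype.

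**Figure D4:**
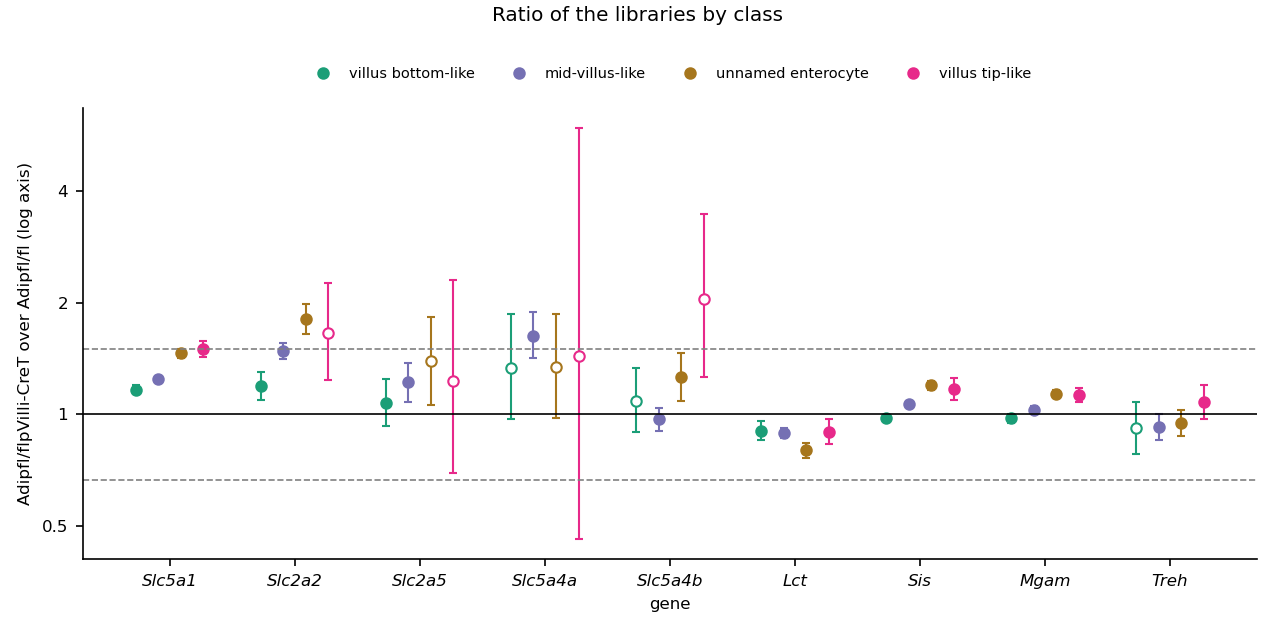
Fold of Adipfl/flpVilli-CreT over Adipfl/fl for each gene in 4 enterocyte classes (log axis), with 95% counting intervals from 1 library per genotype. Filled points met the limits of 50 CPM and 20 UMIs, open points did not, dashed lines mark 1.5-fold in either direction, and the Lct points lie below 1 in all 4 classes while the Slc5a1 and Slc2a2 points lie above it.

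At the villus bottom, 229 and 447 cells, 6 genes could be compared and 0 were called, with 0.884% of all genes called higher and 0.244% lower. Slc2a2 had a fold of 1.19 (1.09 to 1.30), Slc5a1 of 1.17 (1.14 to 1.196) and Lct of 0.904 (0.852 to 0.959); the Lct fold passed above 1 in 3 of 12 alternatives. In the unnamed enterocytes, 829 and 1046 cells, 1 of 7 was called, Slc2a2, at 192 and 347 CPM, a fold of 1.81 (1.65 to 1.99), with 2.32% of genes called higher and 1.27% lower. Slc5a1 had a fold of 1.46 (1.42 to 1.498) there and Lct of 0.801 (0.764 to 0.840). In villus tip-like cells, 578 and 1736 cells, 0 of 5 were called, with 2.17% of genes called higher and 1.51% lower. Slc5a1 stood at 817 and 1225 CPM, a fold of 1.499 (1.43 to 1.57) that lies just short of the limit. Sis had a tip fold of 1.17, and 1 cell held 17.2% of its Adipfl/fl UMIs: without the richest cell of each library the fold was 1.39. In the crypt without the unnamed cycling cluster, 83 and 215 cells, 0 of 3 were called, with 1.18% of all genes higher and 0.521% lower. The Slc5a1 fold was 1.47 (1.29 to 1.66) there. Within these crypt cells, 2 of 3 genes were called higher in stem-like cells, 29 and 85 of them, where 5.12% of all genes were called higher and 4.04% lower. In TA-like cells 0 of 3 were called, where 1.11% were called higher and 0.434% lower. In stem-like cells Slc5a1 had a fold of 2.14 (1.60 to 2.93) from 51 and 411 UMIs, and Sis one of 3.17 (2.09 to 5.03) from 24 and 286 UMIs, 41.7% and 34.6% of them in 1 cell.

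The libraries also differed in these mRNAs in barcodes outside the enterocyte clusters. In T cell-like barcodes, 365 and 440 of them, 5 of the 9 genes could be compared and all 5 were called higher in Adipfl/flpVilli-CreT, where 6.53% of all genes were called higher and 1.51% lower. Slc2a2 and Lct reached 50 CPM only in Adipfl/flpVilli-CreT, so they could be compared only through the library where they were higher. Sis was at 107 and 532 CPM, a fold of 4.99 (4.27 to 5.86). Slc5a1 was at 130 and 490 CPM, a fold of 3.76 (3.26 to 4.37). Slc2a2 was at 3.99 and 51.2 CPM, a fold of 12.8 (6.001 to 32.7). Mgam had a fold of 3.84 (3.26 to 4.56) and Lct, which was lower in the enterocytes, one of 2.12 (1.60 to 2.83). The richest barcode held 9.52% of the Slc5a1 UMIs and 22.0% of the Slc2a2 UMIs of the Adipfl/flpVilli-CreT T cell-like barcodes. Genes of other enterocyte lists were also higher there: 9 of 9 brush border peptidases and other hydrolases, 8 of 9 tip landmarks, 4 of 5 bottom landmarks and 4 of 4 proximal markers compared were called higher. Barcodes with 500 genes or fewer, 2052 and 2020 of them, differed less between the libraries in these 5 genes. Sis was at 696 and 672 CPM in them, Slc5a1 at 617 and 755 CPM and Mgam at 584 and 631 CPM. Slc2a2 was at 43.8 and 54.1 CPM and Lct at 221 and 167 CPM. The cause of this contrast was not tested. In goblet-like cells, 225 and 409 of them, 4 of 6 genes were called higher, where 7.83% of all genes were called higher and 1.44% lower, with Slc5a1 at a fold of 1.99 (1.86 to 2.13). In enteroendocrine-like cells, 55 and 57 of them, 6 of 6 were called higher, where 15.2% of all genes were called higher and 8.44% lower. Slc2a2 and Slc5a4b reached 50 CPM there only in Adipfl/flpVilli-CreT. Slc5a1 had a fold of 2.89 (2.34 to 3.596) from 115 and 388 UMIs, 20.0% and 22.9% of them in 1 cell. Lct had one of 4.90 (3.07 to 8.21) from 21 and 120 UMIs, 38.1% and 20.0% of them in 1 cell. In tuft-like cells, 76 and 62 of them, 0 of 5 were called, where 6.96% were called higher and 4.16% lower, with Slc5a1 at 0.991 (0.882 to 1.11).

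Per barcode, this background was small beside mid-villus-like cells and large beside villus tip-like cells. T cell-like barcodes held 0.625 and 2.17 Slc5a1 UMIs each, 1.23% and 3.40% of the number in mid-villus-like cells but 17.9% and 44.8% of that in villus tip-like cells and 35.7% and 90.2% of that in cluster 0. When this mean was subtracted from each cell, an alternative chosen after the data were seen, the mid-villus-like folds were 1.61 for Slc5a4a, 1.45 for Slc2a2, 1.22 for Slc5a1 and 0.880 for Lct. The unnamed enterocyte folds were 1.56 for Slc2a2 and 1.34 for Slc5a1. The villus tip-like fold of Slc5a1 became 1.01 and the crypt fold 1.02. Lct was below 1 in all 7 clusters after subtraction too, which could not have come out otherwise. Its background, 0.197 and 0.386 UMIs per barcode, was the larger percentage of the level in Adipfl/flpVilli-CreT, so subtraction only lowers its fold. Slc5a1 stayed above 1 in 6 of 7 clusters, cluster 0 being at 0.224. Slc2a2 kept its call in clusters 6 and 3 and lost it in cluster 1, at 1.27, and lay below 1 in cluster 2, at 0.289, while no fold could be had in cluster 0. Sis became 0.418 in cluster 2 and 0.822 in cluster 1, and Mgam became 0.842 at the tip. In Adipfl/flpVilli-CreT the T cell-like barcodes held more Slc2a2, Slc5a4a and Sis UMIs each than villus tip-like cells. A mean above the whole number in a class cannot be a background that every barcode holds alike. In that library 1 T cell-like barcode held 16.3% of the Sis UMIs and 1 held 22.0% of the Slc2a2 UMIs. Subtraction can thus take off too much at the tip, and the folds left there are not read as corrected. Slc2a2 and Slc5a4a at the tip of that library are not told apart from background. For Sis the tip held 555 CPM against 532 CPM, and its share of thinned cells, given above, was higher at the tip.

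**Figure D5:**
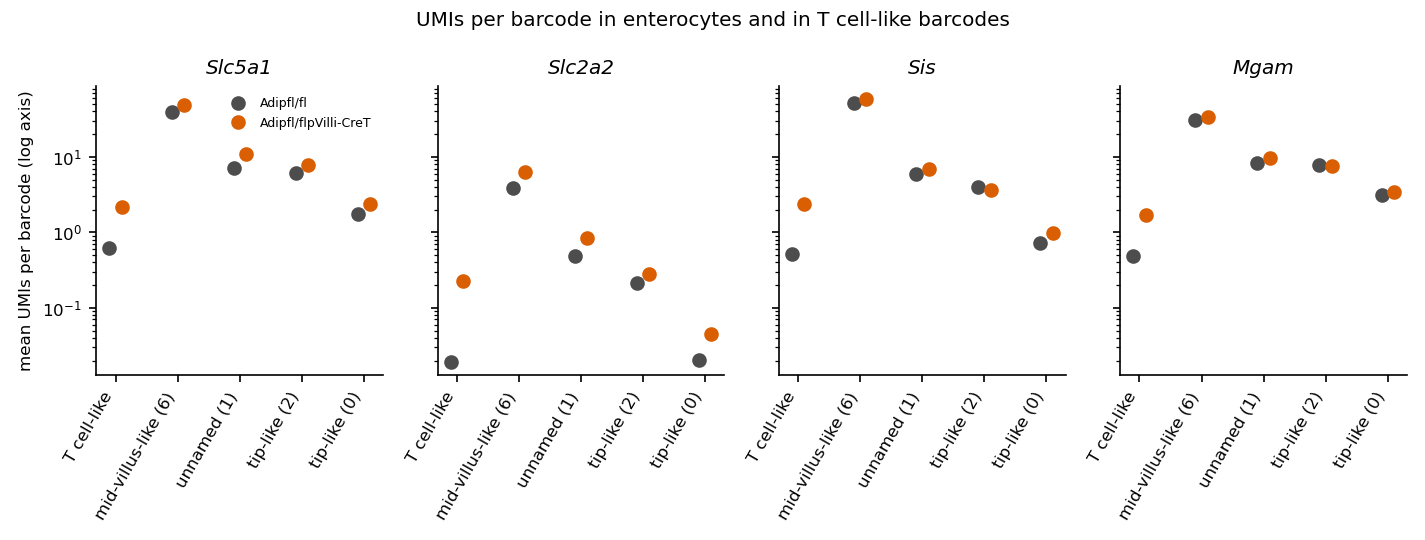
Mean UMIs per barcode (log axis) of Slc5a1, Slc2a2, Sis and Mgam in T cell-like barcodes and in clusters 6, 1, 2 and 0 of each library. In Adipfl/flpVilli-CreT the T cell-like barcodes hold 2.17 Slc5a1 UMIs each, 90.2% of the number in cluster 0, and in Adipfl/fl they hold 0.625, or 35.7%.

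Regional markers of the intestine were also compared, as lists of proximal and distal genes. Ileal markers were near 0 in both: Fabp6, the ileal bile acid binding protein, was at most 9.42 CPM in the 5 crypt and enterocyte classes, Slc10a2, the ileal bile acid carrier, at most 4.95 CPM and Fgf15 at most 14.5 CPM. The 10 proximal markers summed to 21816 and 17621 CPM in mid-villus-like cells, with 0 of the 10 called and folds from 0.762 for Gsta1 to 1.05 for Gpd1. The 2 most abundant, Fabp1 and Rbp2, had folds of 0.795 and 0.779. The 10 distal markers summed to 4290 and 4163 CPM, with 0 of 7 called and folds from 0.812 for Cubn to 1.37 for Naaladl1. The 11 bottom landmarks of the position score summed to 36545 and 44094 CPM there, with 0 of 9 called. The 11 tip landmarks summed to 5387 and 4645 CPM, with 2 of 6 called higher and 0 lower. These were Ada, at 38.5 and 102 CPM, a fold of 2.65, and Clca4a, at 32.2 and 81.9 CPM, a fold of 2.54, while Apoa4 had a fold of 0.740. Ada and Clca4a reached 50 CPM only in Adipfl/flpVilli-CreT, so they could be compared only through the library where they were higher. In villus tip-like cells their folds were 1.03 and 0.966. Of the mid-villus-like cells, 41.9% and 29.3% fell in the most proximal of 3 equal bins of a proximal-distal score. Within the proximal, middle and distal bins the Slc2a2 fold was 1.35, 1.52 and 1.83, the Slc5a1 fold 1.22, 1.26 and 1.22, the Slc5a4a fold 1.49, 1.53 and 2.46 and the Lct fold 0.930, 0.843 and 0.859. The directions held within each bin, and the part of regional make-up in the size of the Slc2a2 and Slc5a4a folds was not tested.

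Other genes of sugar handling were compared by lists written from general knowledge. Of 16 other sugar carriers, 3 could be compared in mid-villus-like cells and 0 were called: Slc5a11, an inositol carrier of the SGLT family, was at 185 and 179 CPM, Slc37a4, the glucose-6-phosphate carrier, at 74.4 and 71.8 CPM and Slc5a9 at 55.8 and 46.8 CPM. Of 18 partners, sensors and regulators, 11 could be compared and 0 were called, with a median log2 fold of -0.00. Atp1b1, a subunit of the sodium pump, had a fold of 1.16 (1.14 to 1.19), and Hnf4g one of 1.02. Of 11 genes of the first steps of sugar metabolism, 6 could be compared and 0 were called: Khk, which phosphorylates fructose, had a fold of 0.986. Of 10 other brush border hydrolases all 10 could be compared and 0 were called, with a median of 0.06 and with Anpep at 1.04 and Mep1b at 1.05. Anpep, like Fabp1 and Rbp2 above, was also among the markers that named the mid-villus-like class.

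In villus tip-like cells, where 2.17% of genes were called higher and 1.51% lower, 3 genes of these sugar and hydrolase lists were called. Txnip, which responds to glucose and restrains its uptake, was at 278 and 165 CPM, a fold of 0.595 (0.541 to 0.656), and was the 1 of 9 partners, sensors and regulators called. Pck1, the gluconeogenic enzyme, was at 77.2 and 117 CPM, a fold of 1.52 (1.30 to 1.79), the 1 of 5 in its list. In mid-villus-like cells Pck1 went the other way, at 192 and 162 CPM, a fold of 0.845 (0.780 to 0.916). Anpep, aminopeptidase N, was at 865 and 1418 CPM, a fold of 1.64 (1.56 to 1.72), the 1 of 10 other hydrolases. Of the other sugar carriers 0 could be compared there. In the regional and landmark lists, 4 genes were called at the tip: Plb1, a distal marker, was lower at 0.596, the bottom landmarks Reg3g and Reg3b were lower at 0.615 and 0.5995, and the bottom landmark Lypd8 was higher at 1.54.

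The genes most like each member over 13 epithelial classes in both libraries, 26 points, were found among 6357 genes by Pearson's r of log2(CPM + 10). These points share libraries and depth, so r is a description. Slc5a1 was most like Gda (r = 0.981), Slc2a2 most like Slc43a2 (0.970), Slc2a5 most like Gpd1 (0.965) and Sis most like Glrx (0.963). Slc5a4a was most like Cyp2c55 (0.933) and next its neighbour Slc5a4b (0.907), which was most like Slc36a1 (0.955). Lct was most like Guca2b (0.986), Mgam most like Btnl1 (0.991) and Treh most like Bst1 (0.983). Among the members Slc5a1 and Mgam had the highest r of all pairs, 0.957, and Slc2a5 and Treh the lowest, 0.460.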

How the data were processed

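Single-cell RNA-seq was analysed from 1 library per genotype, with groups taken from the genotype labels. The deposited values are raw UMI counts per gene and barcode (3′ kit, version 3), which the authors made with bcl2fastq 5.0.1 and Cell Ranger, against mm10; the file headers give Cell Ranger 7.1.0. The authors' filter as stated (over 500 genes, under 25% mitochondrial UMIs) was applied, here over 37 mt- genes; it left fewer cells than the study kept. Cells were clustered in Seurat 5.3.0 (R 4.3.3): scaling to 10000, 2000 variable genes less 8 members or listed sugar genes, 20 principal components, resolution 0.8, and 0.4 for crypt cells. Names came from fixed markers (at least 3 at 2-fold over the other cells); limits on naming were set after clusters were seen. Scrublet in scanpy 1.11.5 called 3 and 2 doublets and so did not work; removing the 8% with the highest scores is an alternative. UMIs were summed per class and library and scaled to 1000000 per class with scipy 1.17.1, numpy 2.4.6 and pandas 2.3.3 in Python 3.11.15; plots used matplotlib 3.10.9. Intervals are exact (Poisson for levels and folds, Clopper-Pearson for shares) at 95% and cover counting error only. The folds, their intervals and the calls were tested on Poisson counts simulated from the mid-villus-like sums. Such draws hold counting error alone, and clustering, naming and background subtraction were not tested in this way. The genes named are the 9 members, list genes past 1.5-fold in mid-villus-like or villus tip-like cells, up to the 4 with the most UMIs per list, and the 3 genes most like each member, of which 1 or 2 are printed; some list genes are not reported here. Fabp1, Rbp2, Gsta1, Gpd1, Cubn, Naaladl1 and the ileal markers Fabp6, Slc10a2 and Fgf15 were singled out after their values were seen. The members and lists were chosen with earlier results of these data known. Alternatives changed 1 setting at a time. Gene positions are from GENCODE and promoters from RefSeq, with all 9 members matched.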

Additional observations from a re-analysis of the deposited data

How the results depend on the processing

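No paired analysis was possible because there was 1 library per genotype, and no replicate could be left out. Of 444 values under alternatives, 128 were counts of called genes and 316 were folds or medians. Only a called fold could be marked as reversed, when it crossed 1. The only fold called among these, Slc5a4a in mid-villus-like cells, did not cross it, so the lack of reversals says little about the rest. In mid-villus-like cells the count called higher was 1; it was 2 with 30 principal components, with the 25% limit over the 13 protein-coding mitochondrial genes alone, with more than 1000 genes per cell and with a mean over cells, and 0 when cells were thinned to 2000 UMIs (Slc5a4a at 1.47) or the limit was 2-fold. In villus tip-like cells it was 0; it was 1 with a mitochondrial limit of 10%, with the protein-coding limit, with the 8% highest doublet scores removed, with non-mitochondrial UMIs as the denominator, with a mean over cells, with thinned cells and without the richest cell, and 2 with a minimum of 10 CPM. In the crypt it was 0; it was 1 with 30 components and 3 with a minimum of 10 CPM. Of 272 fold values, 31 lay on the other side of 1 from the value reported, in 12 of 23 folds; this number was 0 for Slc5a1 and Slc2a2 in each class compared and for Slc2a5, Slc5a4a, Lct, Sis and Treh in mid-villus-like cells. Over the alternatives fixed at the start, the mid-villus-like folds ran from 1.43 to 1.69 for Slc2a2, from 1.47 to 2.16 for Slc5a4a, from 1.23 to 1.31 for Slc5a1 and from 0.854 to 0.922 for Lct, and the villus tip-like folds from 1.14 to 1.61 for Slc5a1 and from 0.693 to 1.28 for Lct. The cause of these shifts was not tested. Depth limits Slc2a5, Slc5a4a and Slc5a4b at the tip, where cluster 0 held at most 22 UMIs of each.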

Other observations

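Barcodes with over 500 genes that the mitochondrial limit removed, 4670 in Adipfl/fl and 4263 in Adipfl/flpVilli-CreT, held UMIs of all 9 genes. They are in no main comparison above, but the alternative with the limit over the 13 protein-coding mitochondrial genes takes in part of them. Slc5a1 was at 1736 CPM (95% interval, 1714 to 1758) and 2286 CPM (2259 to 2314) in them, and Slc2a2 at 120 CPM (115 to 126) and 165 CPM (158 to 173). Lct was at 600 CPM (587 to 613) and 471 CPM (459 to 484). The higher Slc5a1 and Slc2a2 and the lower Lct of the Adipfl/flpVilli-CreT library were thus also present in these barcodes. They come from the same 2 libraries and are pooled over cell types, and the part of their make-up was not tested. Mgam, at 1597 CPM (1576 to 1618) and 1859 CPM (1835 to 1884), and Sis, at 1597 CPM (1576 to 1619) and 1643 CPM (1620 to 1667), were also higher in Adipfl/flpVilli-CreT. Treh, at 228 and 227 CPM, and Slc5a4b, at 48.2 and 46.1 CPM, had overlapping intervals between the libraries. So did Slc5a4a, the gene called in mid-villus-like cells, at 13.1 CPM (11.2 to 15.2) and 17.0 CPM (14.7 to 19.5), again the higher level in Adipfl/flpVilli-CreT. The same held for Slc2a5, at 18.4 CPM (16.2 to 20.9) and 17.1 CPM (14.9 to 19.7), which was higher in Adipfl/flpVilli-CreT in the enterocyte clusters. Overlap of the intervals of 2 levels does not show that the levels are alike, and intervals of the fold are not given for these barcodes.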
